A study of Nannochloropsis oceanica with 6 samples.

Results

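NO01G04880, a gene described in the deposited tables as Phototropin-1B, was followed over 6 RNA-seq libraries of the marine alga Nannochloropsis oceanica. It was selected by its identifier, 1 of 10633 genes, because an earlier analysis of these libraries found it higher in low CO2, so its own difference between the groups is given as a description and no test of it is reported. The low CO2 group was 3 cultures of strain IMET1 moved to aeration at 0.04% CO2, and the high CO2 group, the control, was 3 cultures left at 5% CO2. All 6 were separate column reactors of 800 ml of modified f/2 medium with 10 mM Tris at pH 8.2, started at an OD750 of 1.5, kept at 25 °C and given continuous light of 80 µmol m-2 s-1. All were inoculated with seed cells, had 1 h at 5% CO2 before the switch and were sampled at 24 h, and poly(A) RNA was sequenced.

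Phototropins are blue-light receptors that join LOV domains, which bind a flavin and change shape in blue light, to a serine/threonine kinase of the AGC group. In land plants they steer bending towards light, chloroplast movement and stomatal opening, and in the green alga Chlamydomonas a phototropin acts in the sexual cycle and in the light control of the photoprotective antenna protein LHCSR3. Other blue-light receptors are the cryptochromes, flavoproteins related to DNA photolyases, and the aureochromes, LOV-domain transcription factors of the wider group of algae that includes Nannochloropsis.

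The label of NO01G04880 rests on sequence matches that the authors deposited. Its best protein match was Phototropin-1B of rice, and a further match was a putative LOV domain-containing protein of the green alga Pandorina morum. Its Gene Ontology terms were protein serine/threonine kinase activity and phosphorelay sensor kinase activity, and it shared its KEGG orthology entry with 2 other genes, both described as Phototropin-1 (NO01G02090 and NO08G01840). These 3 were all the genes with that entry and all those described as phototropins. The gene has 1 transcript model of 2173 bases, against 2273 bases for NO01G02090 and 2208 for NO08G01840, and all 3 had whole-number counts in every library. Protein sequences were not analysed here.

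The libraries held 4620234 to 6112822 counts. Across the 9244 genes tested, which are no independent replicates, Pearson's r of log2 CPM (counts per 1000000) was 0.985 between low CO2 replicates 2 and 3 and 0.979 between high CO2 replicates 1 and 2. Low CO2 replicate 1 stood apart from low CO2 replicates 2 and 3 (0.918 and 0.927) and was closer to high CO2 replicates 1 and 2 (0.936 and 0.941). High CO2 replicate 3 stood apart from high CO2 replicates 1 and 2 (0.937 and 0.947). For the genes named, values without these libraries are given where they change a call. Far more genes were called without them: 17.2% of those tested without low CO2 replicate 1 and 36.6% without both libraries, which leaves 2 cultures a group, against 2.12% with all 6 libraries. The libraries left out were picked by their likeness in the same data. Leaving them out therefore tends to narrow the spread within the groups, and the p-values without them are given as description only.

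NO01G04880 had 1131, 1585 and 1626 counts in low CO2 replicates 1, 2 and 3, against 200, 199 and 141 counts in high CO2 replicates 1, 2 and 3. Per length and depth (FPKM, fragments per kilobase per 1000000 fragments), it stood at 127, 146 and 138 in the low CO2 replicates, against 20.2, 20.3 and 15.1 in the high CO2 replicates. The groups lay far apart: the lowest low CO2 library was 6.24-fold above the highest high CO2 library. Within the groups, high CO2 replicate 3 was the lowest of its group in FPKM and in TMM-scaled CPM. The lowest low CO2 library was replicate 1 in FPKM and replicate 3 in TMM-scaled CPM. In TPM, which sums to the same total in each library, the gene averaged 205 ± 19.3 in low CO2 and 26.4 ± 5.03 in high CO2 (SD, n = 3 each). The fit across all genes put the log2 fold change, low minus high CO2, at 2.82 (SE 0.14), or 7.05-fold, and the ratio of mean FPKM was 7.38. In the authors' deposited table of 217 genes the log2 fold change was 2.82, rank 12 from the top.

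Counting error was small beside the gap between the groups. As a share of the library, the gene took 245 CPM in low CO2 replicate 1 (95% Wilson interval 231 to 259) and 283 CPM in low CO2 replicate 2 (269 to 297), against 38.9 CPM in high CO2 replicate 1 (33.9 to 44.7) and 29.2 CPM in high CO2 replicate 3 (24.8 to 34.5). These intervals cover counting error only, since the reads carry no molecular identifiers. They leave out the spread between cultures and are no test of the difference on which the gene was chosen. After scaling by TMM, the coefficient of variation was 3.11% over the low CO2 libraries and 13.0% over the high CO2 libraries, where counting alone would give about 2.63% and 7.45%. The median over all genes tested was 17.0% in low CO2 and 14.1% in high CO2. That median includes genes with few counts, and choosing a gene for a group difference can favour a small spread. Nothing is read from the comparison. The RNA of whole cultures was measured, so more transcript per cell and more cells in an expressing state cannot be told apart.

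Among all 10633 genes, NO01G04880 ranked between 901 and 1140 by FPKM in the low CO2 libraries and between 5666 and 6106 in the high CO2 libraries. By size of rise, it was number 8 of the 8430 genes that averaged 5 FPKM or more, and the 7 genes above it averaged 0 to 1.52 FPKM in high CO2, against 18.6 FPKM for the phototropin. Of the 9244 genes tested, 2.12% were called in either direction, 1.22% as higher and 0.898% as lower in low CO2, where a call is a p below 0.05 in edgeR's quasi-likelihood test after Benjamini-Hochberg adjustment over all of them. The phototropin was chosen on this contrast, and nothing is read from its place among these genes.

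**Figure D1:**
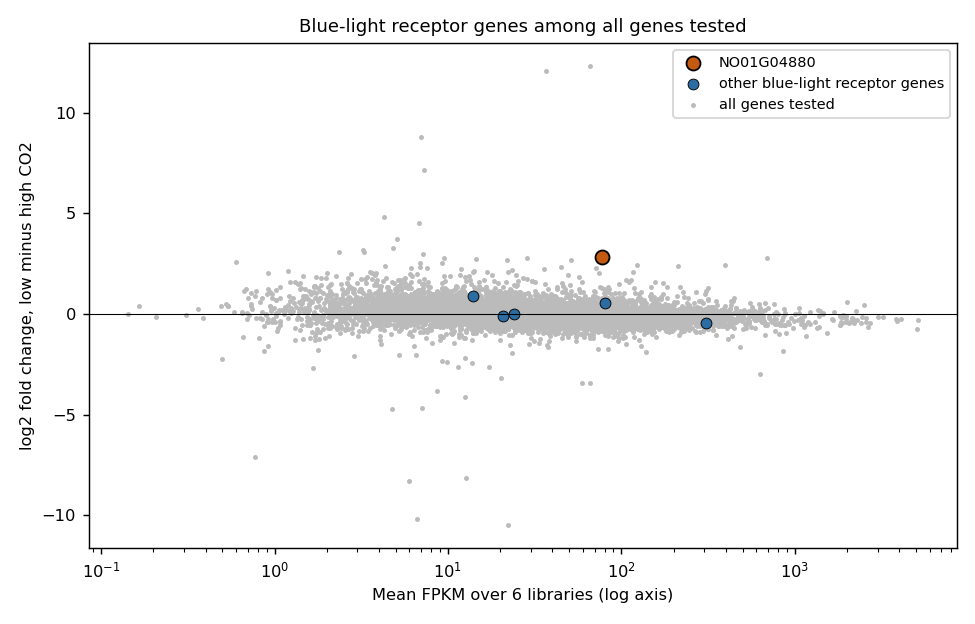
Each grey point is a gene tested, with its mean FPKM over 6 libraries on a log axis and its log2 fold change, low minus high CO2, on the vertical axis. NO01G04880 lies at 2.82, and the other 5 blue-light receptor genes lie between -0.46 and 0.89.

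The most abundant gene described as a phototropin was another, NO01G02090. It stood at 252, 284 and 261 FPKM in the low CO2 replicates, against 365, 363 and 317 FPKM in the high CO2 replicates. The groups did not overlap, and every low CO2 library was below every high CO2 library, as was the case for 11.8% of the genes tested. Its log2 fold change was -0.46 (SE 0.10, 95% interval -0.70 to -0.22 without adjustment for the number of genes), and it did not pass over all genes (adjusted p = 0.0730 in edgeR). It passed as lower in low CO2 without low CO2 replicate 1 (log2 -0.49, adjusted p = 0.0156), in DESeq2 (adjusted p = 0.00640) and without both libraries that stood apart (log2 -0.52, adjusted p = 4.42e-07 in edgeR). Over all 15 alternatives its adjusted p ran from that value to 0.385, with a replicate block.

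The third, NO08G01840, had 67.2, 103 and 120 FPKM in the low CO2 replicates, against 79.8, 85.0 and 25.5 FPKM in the high CO2 replicates. The groups overlapped, and high CO2 replicate 3 was far below the other high CO2 libraries. Its log2 fold change of 0.54 (SE 0.41, 95% interval -0.42 to 1.50) did not pass (adjusted p = 0.504 in edgeR), and without high CO2 replicate 3 it was 0.18. Without both libraries that stood apart it was 0.33, and the gene then passed as higher in low CO2 (SE 0.09, adjusted p = 0.00464 in edgeR).

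In makeup, the phototropin transcripts of every low CO2 library stood apart from those of every high CO2 library. NO01G04880 made up 28.4%, 27.5% and 26.5% of the summed FPKM of the 3 genes in low CO2 replicates 1, 2 and 3, against 4.35%, 4.34% and 4.23% in high CO2 replicates 1, 2 and 3. The spread of this share within a group was small, with a mean of 27.5% ± 0.946 in low CO2 and 4.31% ± 0.0677 in high CO2 (SD, n = 3 each). Counting alone gives the 200, 199 and 141 counts in high CO2 a coefficient of variation of about 7.45%. The closeness of the high CO2 shares is therefore not read as a steady makeup. In the same libraries the share of NO08G01840 ran from 7.13% to 18.2%. NO01G02090 held 50.3% to 56.5% in low CO2 and 77.5% to 88.6% in high CO2, so it was the largest in every library. It was 1.89 to 1.99 times as abundant as NO01G04880 in low CO2 and 17.8 to 21.0 times in high CO2. The summed level itself overlapped, at 446, 533 and 519 FPKM in the low CO2 replicates, against 465, 468 and 358 FPKM in the high CO2 replicates. As the share contains the gene chosen for its change, it is a description and carries no test.

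**Figure D2:**
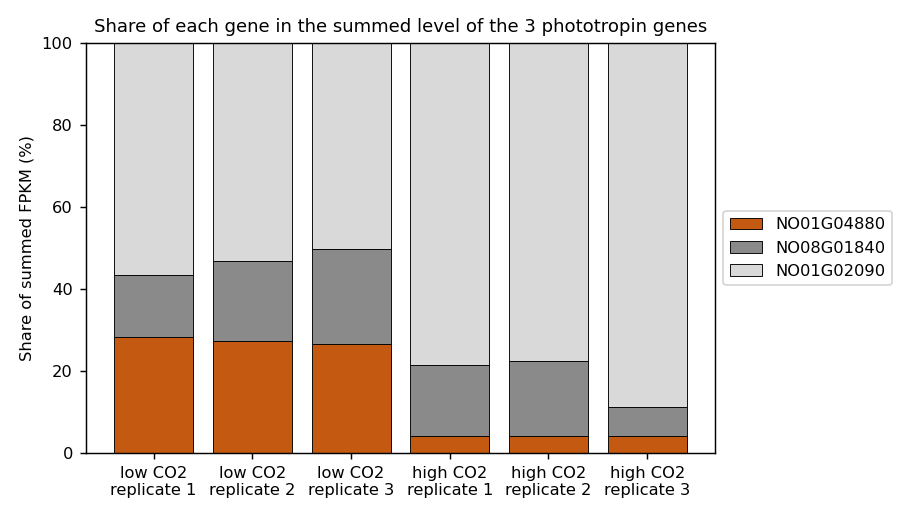
Bars give the share, in percent, of each of the 3 genes in their summed FPKM in a library. The share of NO01G04880 is 26.5% to 28.4% in the 3 low CO2 libraries and 4.23% to 4.35% in the 3 high CO2 libraries.

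The 3 genes described as cryptochromes lay below the other 2 phototropins in mean FPKM in both groups. NO04G00910, described as a chloroplast or mitochondrial cryptochrome DASH, a form known in plants and bacteria to bind and repair single-stranded DNA, had 14.2, 19.6 and 21.4 FPKM in the low CO2 replicates, against 10.1, 8.78 and 9.23 FPKM in the high CO2 replicates. Its groups did not overlap and the low CO2 libraries were above, as in 13.6% of the genes tested. The log2 fold change was 0.89 (SE 0.18, 95% interval 0.47 to 1.32), and the gene did not pass (adjusted p = 0.0568 in edgeR). It passed without low CO2 replicate 1 (0.99, adjusted p = 0.0108), in DESeq2 (adjusted p = 0.00321) and without both libraries that stood apart (1.01, adjusted p = 0.00014 in edgeR). Over all 15 alternatives its adjusted p ran from that value to 0.327, with a replicate block.

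NO16G02000, described as Cryptochrome-1 by its matches in human and chicken, ranged from 13.2 to 28.1 FPKM in low CO2 and from 18.1 to 23.2 FPKM in high CO2. NO19G00720, a shorter gene described as a cryptochrome DASH, ranged from 20.9 to 27.0 FPKM in low CO2 and from 21.3 to 27.3 FPKM in high CO2. Both overlapped between the groups, with log2 fold changes of -0.08 (SE 0.22, adjusted p = 0.864 in edgeR) and -0.02 (SE 0.20, adjusted p = 0.972). Their 95% intervals reach from 0.659-fold to 1.35-fold and from 0.715-fold to 1.37-fold, so changes of that size are not excluded by the data.

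Of the 5 blue-light receptor genes other than NO01G04880, 0 passed in edgeR, where 2.12% of all genes were called. At an unadjusted p below 0.05 there were 2 of 5 (18.6% of all genes tested), DESeq2 called 2 (6.36% of all genes), and limma on log2(FPKM + 1) called 0 (1.88% of all genes). Their median log2 fold change was -0.02, against 0.01 over all genes tested, and 0 of the 5 had a log2 fold change of at least 1 in size, as 4.81% of all genes did. Within the list of 6, NO01G04880 was rank 2 of 6 in all 3 low CO2 libraries, below NO01G02090 and above NO08G01840 without overlap with either. In the 3 high CO2 libraries it was rank 5, where its range overlapped that of NO16G02000 and lay above that of NO04G00910. No description held the word aureochrome.

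**Figure D3:**
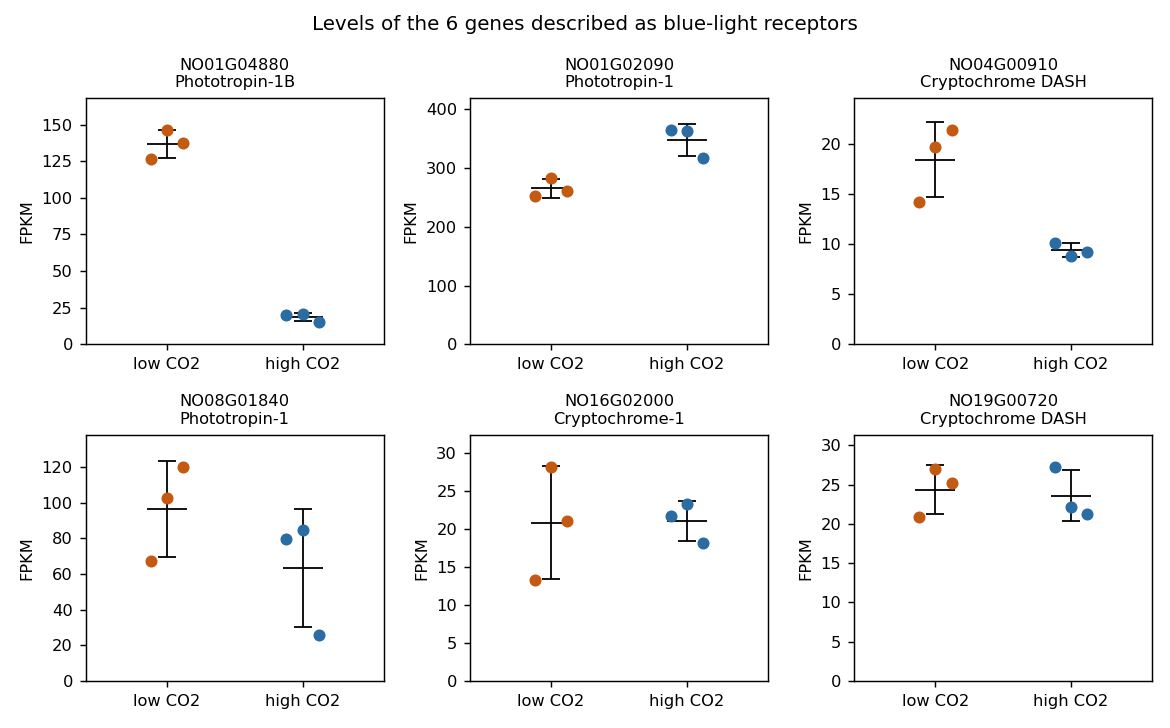
Points are FPKM values of single libraries, 3 at low CO2 on the left and 3 at high CO2 on the right of each panel, with the mean and SD as bars. The groups do not overlap for NO01G04880 (127 to 146 against 15.1 to 20.3), NO01G02090 and NO04G00910, and overlap for the other 3 genes. Of all genes tested, 25.4% do not overlap, in either direction.

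A second list held 10 further genes matched by words for light sensors and photolyases, and 0 of them passed in edgeR, where 2.12% of all genes did. At an unadjusted p below 0.05 there was 1 (18.6% of all genes), in DESeq2 1 (6.36%) and in limma 0 (1.88%). Their log2 fold changes ran from -0.56 to 0.65 with a median of 0.03. NO07G00150, a putative LOV domain-containing protein with the KEGG entry of ZEITLUPE, a plant clock-associated blue-light receptor, had 30.8, 45.7 and 38.7 FPKM in the low CO2 replicates, against 44.8, 44.6 and 34.2 FPKM in the high CO2 replicates. Its groups overlapped (log2 -0.12, SE 0.16, adjusted p = 0.715 in edgeR). NO07G00550, matched to a LOV domain-containing protein and to protein kinases, had 58.2, 54.8 and 50.7 FPKM in the low CO2 replicates, against 44.5, 46.6 and 39.3 FPKM in the high CO2 replicates. Its low CO2 libraries were all above, as in 13.6% of the genes tested. The log2 fold change of 0.27 (SE 0.14) did not pass (adjusted p = 0.331 in edgeR).

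The photolyases NO03G01620 and NO04G04030, enzymes that use blue light to split ultraviolet-induced pyrimidine dimers, had log2 fold changes of 0.18 and 0.20 (SE 0.14 and 0.22). NO17G02800, matched to bacteriorhodopsin, a light-driven proton pump, was at -0.23 (SE 0.24) and did not pass (adjusted p = 0.630 in edgeR). Its value was -0.45 (SE 0.15) without high CO2 replicate 3, and without both libraries that stood apart it passed as lower in low CO2 (-0.47, adjusted p = 0.00636 in edgeR). The genes matched to UVR8, the ultraviolet-B receptor of plants, were NO15G02710 at 0.18 (SE 0.16), NO10G03710 at -0.48 (SE 0.41) and NO15G02720 at -0.56 (SE 0.89), the last with 0 FPKM in low CO2 replicate 1 and 4.24 and 7.08 in low CO2 replicates 2 and 3. Expected counts of NO15G02710 and NO15G02720 were not all whole numbers, so their separate levels depend on how reads were assigned. The word phytochrome in their descriptions brought in 2 genes that are not themselves described as light sensors, NO06G03700, a phytochrome-associated phosphatase (log2 -0.19, SE 0.14), and NO08G00790, matched to the clock transcription factors CCA1 and REVEILLE (0.65, SE 0.18). NO08G00790 had 137, 220 and 227 FPKM in the low CO2 replicates, against 135, 122 and 96.9 FPKM in the high CO2 replicates. Its low CO2 replicate 1 was close to the high CO2 libraries, and the gene did not pass (adjusted p = 0.125 in edgeR) but did without that library (0.80, adjusted p = 0.00884), in DESeq2 (adjusted p = 0.0308) and without both libraries that stood apart (0.69, adjusted p = 4.17e-09 in edgeR).

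**Figure D4:**
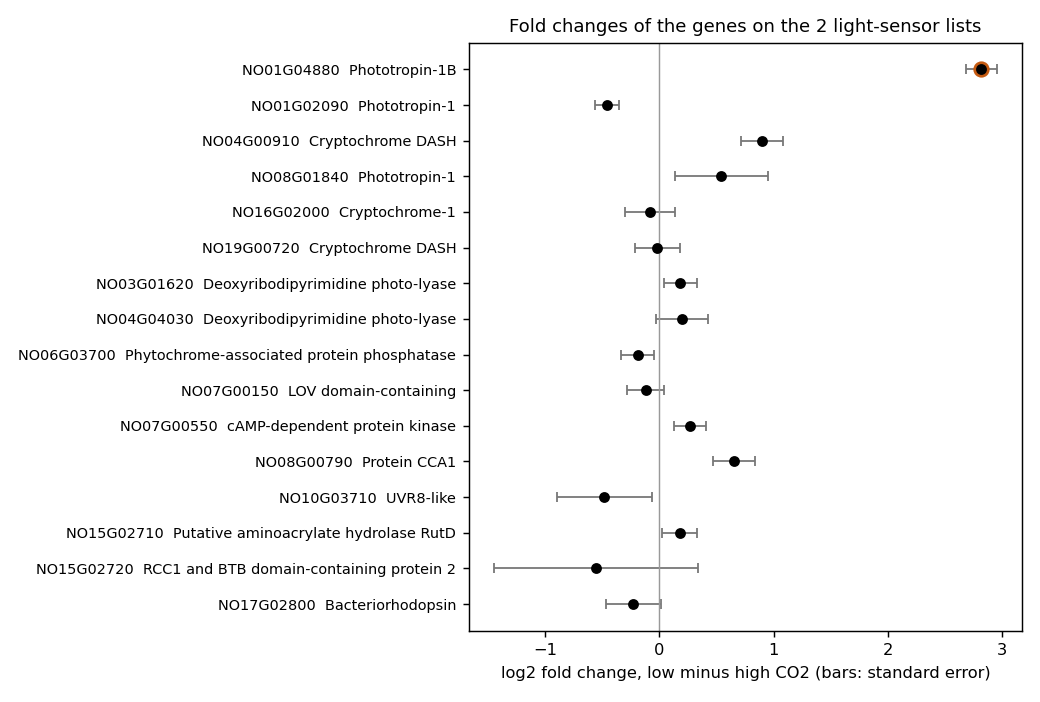
Points are log2 fold changes, low minus high CO2, of the 6 blue-light receptor genes and the 10 genes of the second list, and bars are standard errors. NO01G04880, ringed in orange at the top, lies at 2.82, and the other 15 lie between -0.56 and 0.89.

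The phototropin kinase domain belongs to the AGC group of serine/threonine kinases, and 15 genes carried descriptions of that group. Besides NO01G04880, 12 of the other 14 had enough counts to be tested, and 0 of the 12 passed in edgeR, where 2.12% of all genes did. The phototropin NO01G02090 alone had an unadjusted p below 0.05 (18.6% of all genes) and a call in DESeq2 (6.36%), and limma called 0 (1.88%). Their median log2 fold change was 0.18, from -0.63 to 0.87. The highest value was that of NO10G01760, matched to a cGMP-dependent kinase (SE 0.37), and the lowest that of NO04G04670, matched to the growth regulator CBK1 of yeast (SE 0.40). NO04G04670 had 26.7, 10.4 and 11.7 FPKM in the low CO2 replicates, against 27.0, 23.3 and 23.3 FPKM in the high CO2 replicates. Its low CO2 replicate 1 alone lay with the high CO2 libraries, and without that library the gene passed as lower in low CO2 (log2 -1.28, adjusted p = 0.00228 in edgeR), as it did without both libraries that stood apart (-1.29, adjusted p = 4.08e-08). NO04G01500, matched both to the kinase PDK1 and to a subunit of the phosphatase PP2A, is on this list and the next.

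In land plants, phototropins bind 14-3-3 proteins and act through protein phosphatases, and 15 genes matched such partners. Of these, 1 was a 14-3-3-like gene and the others were matched to the phosphatases PP1 or PP2A. No description held the words used for the phototropin-binding proteins NPH3 or RPT2 or the words plasma membrane ATPase. Such genes under other wording were not covered. Of the 15, 0 passed in edgeR, where 2.12% of all genes did, with a median log2 fold change of 0.08. At an unadjusted p below 0.05 there were 2 (18.6% of all genes), in DESeq2 1 (6.36%) and in limma 0 (1.88%). The gene with the highest level, the 14-3-3-like NO02G02660, had 285, 314 and 311 FPKM in the low CO2 replicates, against 257, 265 and 191 FPKM in the high CO2 replicates. Every low CO2 library was above every high CO2 library, as in 13.6% of the genes tested. The log2 fold change was 0.30 (SE 0.13, adjusted p = 0.284 in edgeR), and the smallest gap was between low CO2 replicate 1 and high CO2 replicate 2.

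The photoprotection list held 21 genes matched by words for xanthophyll cycle enzymes, which convert violaxanthin and zeaxanthin, or for antenna proteins such as LHCSR or LI818 of green algae. Not all carry such a protein name: NO16G00210 and NO26G00380 are named as other monooxygenases and NO18G00330 as an uncharacterized protein. Of the 21, 0 passed in edgeR, where 2.12% of all genes did, with 8 log2 fold changes above 0 and 13 below and a median of -0.14. At an unadjusted p below 0.05 there were 5 (18.6% of all genes), in DESeq2 2 (6.36%) and in limma on log2(FPKM + 1) 1 (1.88%). The most abundant, NO25G00860, had 4891, 4650 and 4666 FPKM in the low CO2 replicates, against 5301, 5231 and 6054 FPKM in the high CO2 replicates (log2 -0.29, SE 0.14, adjusted p = 0.299 in edgeR). Its groups did not overlap, with low CO2 below as in 11.8% of the genes tested, and high CO2 replicate 3 was the highest. Without both libraries that stood apart it passed as lower in low CO2 at the same size (-0.28, SE 0.03, adjusted p = 6.37e-07 in edgeR). None of the genes on these lists other than NO01G04880 was in the authors' deposited table, which holds 217 of the 10633 genes.

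The genes with neighbouring locus numbers overlapped between the groups, where 25.4% of all genes tested did not overlap, in either direction. NO01G04870, described as a carnosine N-methyltransferase, had 4.56, 8.72 and 8.38 FPKM in the low CO2 replicates, against 6.14, 7.65 and 4.06 FPKM in the high CO2 replicates. NO01G04890, without a protein name, had 9.14, 15.6 and 16.7 FPKM in the low CO2 replicates, against 10.2, 10.2 and 10.6 FPKM in the high CO2 replicates. The same held for NO01G04860, a putative thylakoid lumen prolyl isomerase, and NO01G04900, a phosphotriesterase-related protein. The log2 fold changes of these 4 genes lay between -0.28 and 0.33, with adjusted p-values of 0.390 to 0.747 in edgeR. The genes next to the phototropin in mean level, NO17G02430 above it and NO17G00180 below it, had log2 fold changes of -0.41 (SE 0.57) and -0.08 (SE 0.25).

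The profile of NO01G04880 over the 6 libraries was set against those of the 8430 genes averaging 5 FPKM or more. All points share their libraries and the gene was chosen for its group difference, so likeness mostly picks genes that differ between the groups, and no p is given. Pearson's r of log2 CPM was above 0.9 for 363 genes and below -0.9 for 416. The 6 with the highest r (0.997 to 0.999) were NO10G02720, matched to a Myb transcriptional activator, NO24G00190, matched to the yeast phosphate permease PHO89, NO02G05150, matched to an isomerase of methionine salvage, and the genes NO23G00040, NO21G00150 and NO02G00660, which have no protein name. They were alike in shape and not in size, with folds of 1.45 to 3.19. NO24G00190 had 145, 180 and 183 FPKM in the low CO2 replicates, against 55.3, 56.4 and 47.6 FPKM in the high CO2 replicates. NO10G02720 had 125, 129 and 136 FPKM in the low CO2 replicates, against 84.5, 85.1 and 81.0 FPKM in the high CO2 replicates. The 3 lowest r (-0.998 to -0.999) belonged to the ferredoxin NO09G00110, an iron-sulfur electron carrier, to NO03G05560, without a description, and to NO09G03180, which is described as an NADH dehydrogenase and listed at 0 in all low CO2 libraries.

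In Euclidean distance, which also counts the size of the change, the nearest genes were NO04G01800 and NO04G03760, both without a description, and NO15G02830, matched to a mannosyltransferase and to an enzyme of sulfolipid synthesis. Their distances were 0.395, 0.596 and 0.858 on the log2 scale, against a median of 3.53 over all genes compared. NO04G03760 had 91.0, 91.7 and 84.6 FPKM in the low CO2 replicates, against 13.6, 11.4 and 14.4 FPKM in the high CO2 replicates, and was thus 6.47-fold higher. NO15G02830 had 68.0, 41.4 and 41.5 FPKM in the low CO2 replicates, against 7.54, 6.20 and 7.26 FPKM in the high CO2 replicates, with low CO2 replicate 1 the highest. NO04G01800 averaged 25.5 ± 3.08 FPKM in low CO2 and 3.66 ± 0.589 FPKM in high CO2 (SD, n = 3 each).

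**Figure D5:**
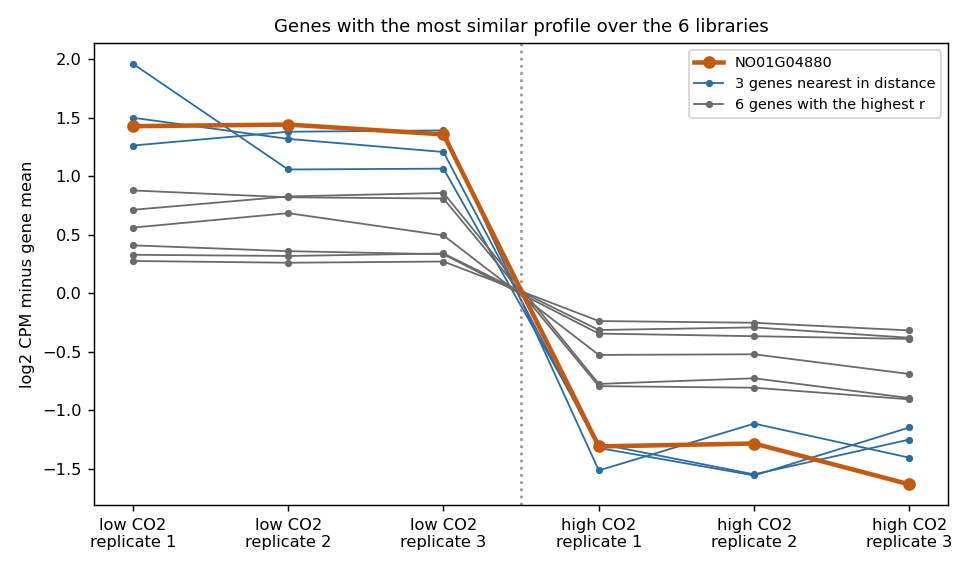
Lines join the values of a gene over the libraries, whose replicates have no order, 3 at low CO2 on the left and 3 at high CO2 on the right, as log2 CPM minus the gene's mean. The 3 nearest genes in blue follow NO01G04880 in size, and the 6 genes with the highest r in grey share its shape at folds of 1.45 to 3.19.

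Deviations from the group means do not use the difference on which the gene was chosen. For NO01G04880 they were 0.02, 0.03 and -0.05 in low CO2 replicates 1, 2 and 3 and 0.10, 0.12 and -0.22 in high CO2 replicates 1, 2 and 3, on the log2 scale. Over these 6 deviations, Pearson's r was 0.81 with NO01G02090, 0.87 with NO08G01840 and 0.98 with the 14-3-3-like NO02G02660, and between -0.28 and 0.35 with the 3 cryptochromes. In log2(FPKM + 1) it was 0.96 with both phototropins, 0.98 with NO02G02660 and 0.36 to 0.68 with the cryptochromes, so the contrast between the receptors depends on the scaling. The largest deviation of NO01G04880 was in high CO2 replicate 3, which stood apart from its group over all genes, and the 6 points share library scaling. The part of that library in these correlations was not tested. In log2 CPM, the median r over the 8429 other genes averaging 5 FPKM or more was -0.003. The share of genes with r as high as these was not counted. Of the list of partners only NO02G02660, its most abundant gene, was compared.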

How the data were processed

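The submitters' processing notes name STAR, StringTie, featureCounts, Picard, Trim Galore and edgeR, without their roles. Their versions, the genome build and the annotation are not given in the sources used here. Per the file headers, each table deposited by the authors holds per gene its FPKM, its TPM and an expected count. In addition, the authors deposited a table of log2 fold changes, p-values and adjusted p-values for 217 genes, whose 1302 FPKM values equal the library tables within 0.005. In the expected counts, 17.5% to 19.8% of values per library were more than 0.004 from a whole number.

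Expected counts were rounded, filtered with filterByExpr (9244 of 10633 genes kept), scaled by TMM and tested in edgeR 4.0.16 (R 4.3.3; glmQLFit with robust = TRUE and glmQLFTest), with no block for replicate numbers. Fold changes are low minus high CO2, calls need a p below 0.05 after Benjamini-Hochberg adjustment over all genes tested, and SE is the log2 fold change over the root of F. Likeness used log2 CPM with a prior count of 1. Alternatives used DESeq2 1.42.0, limma 3.58.1 (genes averaging 1 FPKM or more), other filters and scalings, and fewer libraries. The test was also tested on simulated counts, with the spread of each gene set by the trend over all genes. It called 7.58% of genes changed 1.5-fold, 56.7% of those changed 2-fold and 98.5% of those changed 4-fold. Of its calls, 1.82% were false. These rates belong to the simulated counts and need not hold for the lists. A list with 0 genes passing can hold changes of 1.5-fold to 2-fold, and larger ones are not excluded. With all libraries, the confidence intervals reached up to 2.82-fold for NO08G01840 and 3.35-fold for NO10G01760, and down to 0.339-fold for NO04G04670. Figures used matplotlib 3.10.9.

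The gene, the lists (word patterns on the descriptions) and the alternatives were chosen with earlier results of these data known, and the pattern for Tricorner kinases was narrowed after it matched a species name. Named were all genes of both light-sensor lists; of other lists up to 3 called genes and the most abundant; the 6 highest and 3 lowest r; the 3 nearest in distance; 2 locus numbers on each side; and the nearest mean levels. NO10G01760, NO04G04670 and NO04G01500, and the genes in the closing observations, were named after their values were seen. Of 160 genes in the reference table, 0 matched an identifier.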

Additional observations from a re-analysis of the deposited data

How the results depend on the processing

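Under all 15 alternatives the log2 fold change of NO01G04880 stayed between 2.70 and 2.89, within 0.14 (the SD between replicates on the log2 scale) of its value of 2.82; the highest was with limma on log2(FPKM + 0.1) and the lowest without both libraries that stood apart. The count of all genes called, 196, depended on the fit: 21 with a replicate block, 588 in DESeq2, 18 to 1610 with a library left out, and 3402 without low CO2 replicate 1 and high CO2 replicate 3. The replicate numbers were not treated as pairs, and the sample titles state no pairing. Correlations of same-numbered deviations were -0.34, 0.09 and -0.43 for replicates 1, 2 and 3. They cannot show whether cultures were paired, as those of replicates 1 and 3 each involve a library that stood apart. The replicate block called 0 of the listed genes other than NO01G04880. Calls among listed genes other than NO01G04880 were 0 by the test reported. DESeq2 called 6.36% of all genes tested. Among the lists it called 2 of 5 blue-light receptors, 1 of 10 other light sensors, 1 of 12 AGC-type kinases tested, 1 of 15 partners and 2 of 21 photoprotection genes. Without both libraries that stood apart, the calls on these lists were 3, 2, 4, 2 and 9, where 36.6% of all genes tested were called. With single libraries left out they ran from 0 to 2, 0 to 1, 0 to 3, 0 to 1 and 0 to 3. The highest each time was without low CO2 replicate 1, where 17.2% of all genes tested were called. With library totals only, and with limma on log2(FPKM + 1) or log2(FPKM + 0.1), 1 photoprotection gene was called. These fits called 184 of 9244, 182 of 9673 and 178 of 9673 genes. The within-group r of NO01G04880 with NO01G02090 was 0.81, and 0.96 in log2(FPKM + 1), where the cryptochromes also had higher values. Of the 6 genes with the highest r, 1 had a Spearman's rho of 1, and 0 were among the top 6 without both libraries, where 1690 genes had r above 0.9. The cause of these differences was not tested. Counting alone gives NO01G04880 a coefficient of variation of 2.63% in low CO2 and 7.45% in high CO2.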

Other observations

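On the photoprotection list, NO18G00330, matched to the LI818 protein of a green alga, had 311, 319 and 281 FPKM in the low CO2 replicates, against 135, 149 and 191 FPKM in the high CO2 replicates. Its groups did not overlap, with low CO2 above as in 13.6% of the genes tested. Its log2 fold change of 0.87 (SE 0.18) did not pass in edgeR (adjusted p = 0.0559). It passed in DESeq2 (adjusted p = 0.00165) and in limma on log2(FPKM + 1) (adjusted p = 0.0324). In edgeR it passed without low CO2 replicate 1 (0.78, adjusted p = 0.0261), without high CO2 replicate 3 (1.06, adjusted p = 0.0463), without both (0.97, adjusted p = 5.27e-09) and with library totals only (0.94, adjusted p = 0.0270). NO02G05990, matched to the antenna protein L1818 of Chlamydomonas, had 2627, 3046 and 3094 FPKM in the low CO2 replicates, against 2147, 2103 and 1962 FPKM in the high CO2 replicates (log2 0.44, SE 0.09, adjusted p = 0.0663 in edgeR). It passed as higher in DESeq2 (adjusted p = 0.000795) and, in edgeR, without low CO2 replicate 1 (0.45, adjusted p = 0.0141) and without both libraries that stood apart (0.44, adjusted p = 5.59e-07). These stand beside the fucoxanthin-chlorophyll protein NO09G00450, which had 2244, 1989 and 2019 FPKM in the low CO2 replicates, against 2566, 2519 and 3164 FPKM in the high CO2 replicates (log2 -0.46, SE 0.16, adjusted p = 0.193 in edgeR). Its expected counts, like those of NO09G00440 with the locus number before, were not all whole numbers, so its level depends on how reads were assigned. NO09G00450 passed as lower in edgeR without low CO2 replicate 1 (-0.59, adjusted p = 0.0342) and without both libraries (-0.45, adjusted p = 1.54e-08). Over the photoprotection list, 2 genes without overlap were higher in low CO2 and 6 lower, against 13.6% and 11.8% of the genes tested. Without both libraries, 9 of the list were called, 2 as higher and the others as lower, where 36.6% of all genes tested were called.

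The locus number before the phototropin NO08G01840 is NO08G01830, described as a violaxanthin de-epoxidase, the enzyme that makes zeaxanthin in excess light. It had 48.0, 71.0 and 73.9 FPKM in the low CO2 replicates, against 67.6, 57.9 and 55.1 FPKM in the high CO2 replicates, and the groups overlapped (log2 0.02, SE 0.15, adjusted p = 0.962 in edgeR).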
